A study of Mus musculus with 6 samples.

Results

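The genes described here are 50 genes of transport between the endoplasmic reticulum (ER) and the Golgi, chosen by symbol for what their products do. Earlier results of these data were known when these genes were chosen. They encode the COPII and COPI coats, cargo receptors of both directions, and the tethers, Rab GTPases and SNAREs of the same route. Each symbol matched 1 of the 54446 genes listed, and all 50 were among the 16734 genes that passed the filter on low counts. Expression was measured by RNA-seq in whole liver, with 1 library from each of 3 WT and 3 *Fmo5*-/- mice. All were males of 32 weeks of age on a C57BL/6 background (C57BL/6J in the study's methods), fed standard chow, and the knockouts carried the disrupted *Fmo5* gene throughout the animal, not in hepatocytes alone. Mice were kept in adjacent cages, no cage is given for a library, and an effect of cage was not tested. Mice are numbered here in the order of deposit. FMO5 is a flavin-containing monooxygenase of the ER membrane, abundant in hepatocytes.

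Between 44886286 and 52338675 reads were counted on genes per library. Values are normalized counts, that is read counts scaled between libraries by edgeR's TMM factors, and are not corrected for gene length unless given per kilobase. *Fmo5* (chromosome 3, 97628804 to 97655282 of mm10) was counted 39808, 37405 and 30239.7 in WT and 1071, 1102 and 1194 in *Fmo5*-/- mice (log2 fold change -5.00), which matches the labels. Hepatocyte markers were abundant in all 6 libraries, and 0 of 6 passed the test between genotypes with edgeR, or with DESeq2, or at an unadjusted p under 0.05.

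Proteins made on the rough ER leave it in vesicles coated by COPII. The GTPase SAR1, switched on by PREB (SEC12), recruits the inner coat of SEC23 and SEC24, in which SEC24 picks the cargo, and the outer coat of SEC13 and SEC31. COPI, a coatomer complex recruited by ARF1, carries escaped ER residents and receptors back and moves material through the Golgi. Hepatocytes depend on this route for albumin, coagulation factors and very-low-density lipoproteins, which leave the ER in large carriers that need SAR1B, the TANGO1 family and SURF4. COPI is also known to act on lipid droplets.

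Most transport genes had lower read counts in *Fmo5*-/- liver. Of the 50 genes, 47 had a lower estimate in *Fmo5*-/- than in WT mice and 3 (*Sec24c*, *Kdelr3* and *Cope*) a higher one, with *Sec24b*, near 0, joining them when the 20 most abundant genes were left out of the scaling. With only genes of a mean of 500 or more in the fit, which also moves the scaling, 41 of 49 were lower. With edgeR's quasi-likelihood test, adjusted over all 16734 genes, 6 were lower at an adjusted p under 0.05 and 0 were higher. For comparison, 0.693% of all genes tested were called lower and 0.675% higher, and of the 7819 genes with a mean of 500 or more, as 49 of the 50 had, 1.06% were called lower in the same fit. In 33 of the 50 genes every *Fmo5*-/- mouse lay below every WT mouse, against 13.5% of all genes tested and 21.9% of genes with a mean of 500 or more. No gene of the 50 had all *Fmo5*-/- mice above all WT mice, and in the remaining 17 the genotypes overlapped.

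The median log2 fold change over the 50 genes was -0.25, with single genes between -0.63 and 0.15. The median was 0.0058 over all genes tested and -0.062 over genes with a mean of 500 or more. At an unadjusted p under 0.05 in edgeR, 29 of the 50 were lower and 0 higher, where 10.2% of all genes and 17.6% of genes with a mean of 500 or more were lower. The DESeq2 Wald test called 23 of the 49 that received an adjusted p lower and 0 higher, against 4.21% of all genes called lower and 6.75% of those with a mean of 500 or more. The count of calls changed with the filter and when 1 library was left out, and the cause was not tested. It was 0 when only genes with a mean of 500 or more were fitted, and 0 without WT mouse 1, WT mouse 2, *Fmo5*-/- mouse 1 or *Fmo5*-/- mouse 2, 5 without WT mouse 3 and 3 without *Fmo5*-/- mouse 3. Of all genes fitted, between 0.088% and 0.29% were called lower in the 4 fits that left out 1 library and called none of the 50, 0.562% without WT mouse 3 and 0.917% without *Fmo5*-/- mouse 3. The share called lower was 0.294% when only genes with a mean of 500 or more were fitted. The median stayed between -0.26 and -0.22 with 1 library left out and was -0.21 with only genes of a mean of 500 or more.

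**Figure D1:**
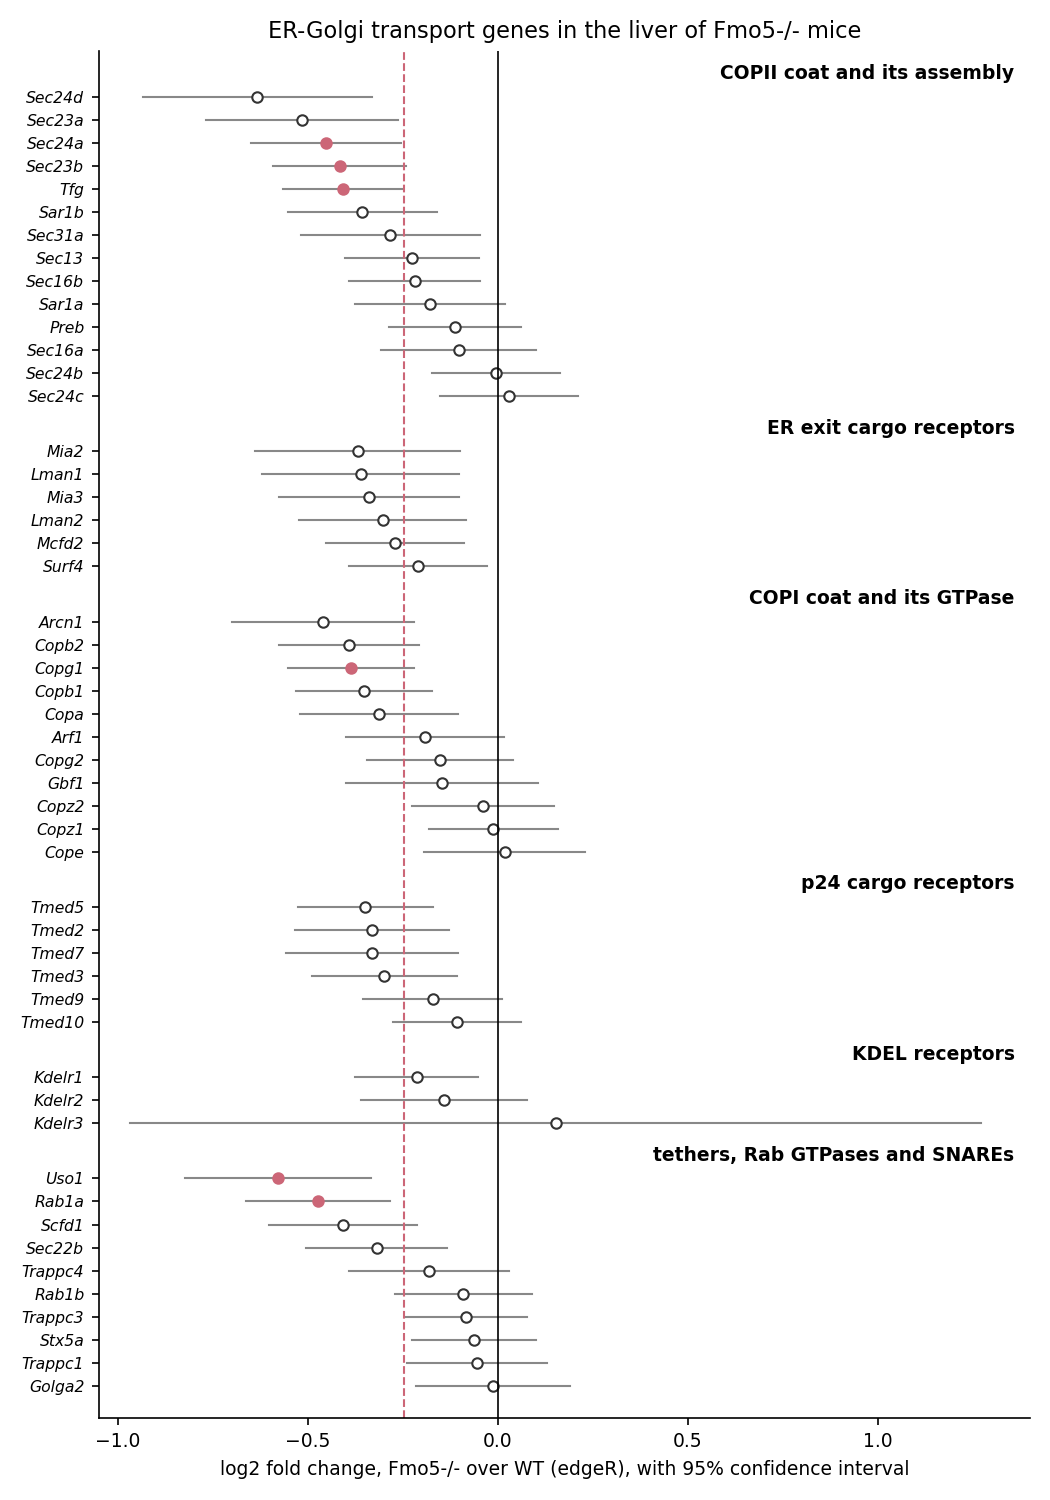
Log2 fold change (*Fmo5*-/- over WT) of each of the 50 genes, grouped by role, with its 95% confidence interval from edgeR. Filled points mark the 6 genes with an adjusted p under 0.05, the dashed line marks the median of -0.25, and 47 of the 50 points lie left of 0.

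The 6 called genes act at several steps of the route. *Tfg* encodes a protein that organizes ER exit sites at the interface with the Golgi (chromosome 16, 56690332 to 56717450). Its normalized counts were 3262, 3178 and 3166 in WT and 2453, 2431 and 2353 in *Fmo5*-/- mice, narrow in both genotypes and far apart. The log2 fold change was -0.41 ± 0.070 (SE), with an edgeR adjusted p of 0.0354, and *Tfg* fell by 24.7%. *Sec23b*, an inner coat subunit that activates the SAR1 GTPase (chromosome 2, 144556229 to 144590749), had 3269, 3386 and 2995 in WT and 2442, 2347 and 2446 in *Fmo5*-/- mice. The *Fmo5*-/- mice differed by less than the WT mice did among themselves, and the log2 fold change was -0.42 ± 0.078 (SE), with an edgeR adjusted p of 0.0459. *Sec24a*, a cargo-binding subunit of the inner coat (chromosome 11, 51692264 to 51763634), had 4756, 5006 and 4534 in WT and 3307, 3323 and 3814 in *Fmo5*-/- mice, where *Fmo5*-/- mouse 3 was the nearest to the WT mice. It fell by 26.9% (log2 -0.45 ± 0.088 SE, edgeR adjusted p = 0.0468).

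On the receiving side, *Uso1* encodes p115, a long coiled-coil tether that captures COPII vesicles (chromosome 5, 92137938 to 92202798). It had 6467, 6787 and 5337 in WT and 4512, 3978 and 3956 in *Fmo5*-/- mice, and WT mouse 3 was the lowest WT mouse, still above every *Fmo5*-/- mouse. It fell by 33.1%, the most of the 6 (log2 -0.58 ± 0.11 SE, edgeR adjusted p = 0.0459). *Rab1a*, the GTPase that recruits p115 and sets the direction of ER to Golgi traffic (chromosome 11, 20201432 to 20226856), had 9074, 8838 and 7984 in WT and 6384, 6220.4 and 6052 in *Fmo5*-/- mice, again without overlap. Its log2 fold change was -0.47 ± 0.084 (SE), with an edgeR adjusted p of 0.0408. *Copg1*, the main gamma subunit of COPI (chromosome 6, 87887814 to 87913595, with 8.55% of its exon bases shared with *Gm26636*), had 4359, 4563 and 4265 in WT and 3438, 3382 and 3265 in *Fmo5*-/- mice and a log2 fold change of -0.39 ± 0.074 (SE), with an edgeR adjusted p of 0.0468. Without 1 library, *Rab1a* and *Uso1* passed only when WT mouse 3 was left out, *Tfg*, *Sec23b* and *Sec24a* only when *Fmo5*-/- mouse 3 was left out, and *Copg1* in none of the 6 fits, and the fold changes kept their sign throughout. *Sec24d*, *Scfd1* and *Arcn1* also passed without WT mouse 3, but were not called with all 6 libraries. All 6 called genes were also lower by DESeq2, with adjusted p between 7.79e-05 and 0.00111.

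**Figure D2:**
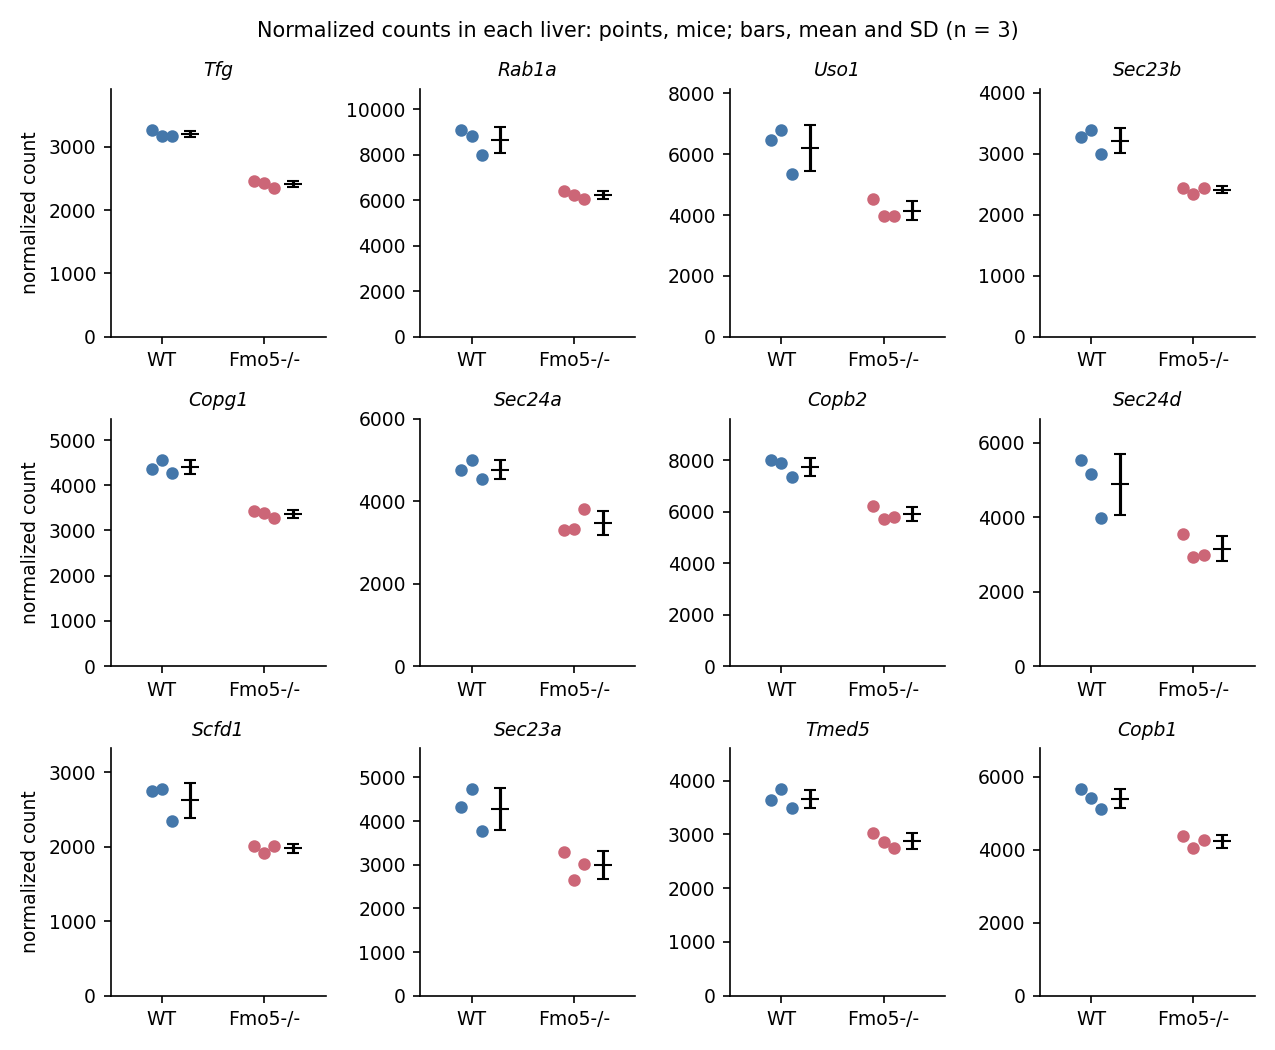
Normalized counts, from 0, of the 12 transport genes with the smallest p in edgeR. Points are single mice (WT left, *Fmo5*-/- right) and bars the mean and SD of 3 mice, and in all 12 panels the *Fmo5*-/- points lie below the WT points, with *Sec24d* the widest WT spread at 817 around 4889.

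Of the 14 genes of the COPII coat and its assembly, 3 were called lower (*Tfg*, *Sec23b* and *Sec24a*), 10 were lower without overlap, and the median log2 fold change was -0.25. The lowest estimate of all 50 genes was that of *Sec24d*, whose product also selects cargo (chromosome 3, 123267455 to 123365641), with 5544, 5151 and 3973 in WT and 3542, 2924 and 2992 in *Fmo5*-/- mice. WT mouse 3 stood much nearer to the *Fmo5*-/- mice than the other WT mice did. With that spread *Sec24d* missed the threshold (log2 -0.63 ± 0.13 SE, edgeR adjusted p = 0.0554) and passed without WT mouse 3. *Sec23a*, the paralogue of *Sec23b*, had 4329, 4727 and 3762 in WT and 3290.3, 2648 and 3025 in *Fmo5*-/- mice (log2 -0.52 ± 0.11 SE, edgeR adjusted p = 0.0564). *Sec24b* and *Sec24c* stood apart from the other cargo-binding subunits, with 1251, 1310.0 and 1227 in WT and 1309, 1219.8 and 1244 in *Fmo5*-/- mice for *Sec24b* and 5832, 6401 and 5828 in WT and 5928, 6378 and 6116 in *Fmo5*-/- mice for *Sec24c*. Their log2 fold changes were -0.0057 (95% interval -0.17 to 0.16) and 0.029 (-0.15 to 0.21).

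Around the coat, *Sar1b*, the GTPase tied to lipoprotein export, had a log2 fold change of -0.36 (adjusted p = 0.071) with group means of 11944 ± 380.0 in WT and 9326 ± 648 in *Fmo5*-/- mice (SD, n = 3 each), and *Sar1a* one of -0.18 with overlapping genotypes. *Sar1b* was by far the most abundant transcript of the coat per length, at 9945 ± 316 in WT and 7765 ± 539.8 in *Fmo5*-/- mice per kilobase of exon. The outer coat genes *Sec31a* and *Sec13* had log2 fold changes of -0.28 and -0.22, and the scaffolds of exit sites *Sec16b* and *Sec16a* had -0.22 and -0.10. *Preb*, the exchange factor of SAR1, had -0.11. None of these reached the threshold in edgeR, and *Sec16a* and *Sar1a* overlapped between genotypes. About 21.8% of the exon bases of *Preb* are shared with *Abhd1*, and reads there count for neither gene.

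The 6 receptors that load cargo at ER exit were lower without overlap in every case, and 0 were called by edgeR, although each had an unadjusted p under 0.05 and DESeq2 called 5. Their log2 fold changes lay between -0.37 and -0.21, with edgeR adjusted p between 0.102 and 0.172. *Mia2* and *Mia3* encode cTAGE5/TALI and TANGO1, which help pack bulky cargo such as lipoproteins and collagen. Group means of *Mia2* were 17157 ± 1510.2 in WT and 13283 ± 1781 in *Fmo5*-/- mice (SD, n = 3 each), and those of *Mia3* were 7915 ± 709.6 in WT and 6259 ± 643 in *Fmo5*-/- mice. *Lman1* and *Mcfd2* form the receptor of coagulation factors V and VIII, and their log2 fold changes were -0.36 and -0.27. *Lman2*, a lectin, had -0.30, and *Surf4*, a receptor of soluble cargo that includes lipoproteins, had -0.21 (95% interval -0.39 to -0.029).

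The COPI genes fell into 2 kinds by their values, a division made after the values were seen and not tested. *Copa*, *Copb1*, *Copb2*, *Arcn1* and *Copg1*, which encode the alpha, beta, beta prime, delta and gamma subunits, were lower without overlap. *Copb2* had 8013, 7874 and 7338 in WT and 6213, 5704 and 5773 in *Fmo5*-/- mice (log2 -0.39 ± 0.082 SE, edgeR adjusted p = 0.0552). *Copb1* had 5656, 5415 and 5126 in WT and 4386, 4040.5 and 4269.6 in *Fmo5*-/- mice (log2 -0.35 ± 0.079 SE, edgeR adjusted p = 0.0633). The log2 fold changes of *Arcn1* and *Copa* were -0.46 and -0.31, with adjusted p of 0.0662 and 0.102. In contrast, *Cope*, *Copz1* and *Copz2*, of the epsilon and zeta subunits, had log2 fold changes of 0.019, -0.012 and -0.040, with 95% intervals of -0.19 to 0.23, -0.18 to 0.16 and -0.23 to 0.15. *Copg2*, the minor gamma subunit, had -0.15, *Arf1*, the GTPase of the coat, -0.19, and *Gbf1*, its exchange factor, -0.15, and all overlapped between genotypes. In all, 1 of the 11 genes was called lower and 5 did not overlap, with a median of -0.19.

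Levels per length put these subunits on 1 scale. Normalized counts per kilobase of exon were 4751 ± 478 in WT and 4812 ± 172 in *Fmo5*-/- mice for *Cope* and 2893 ± 45.9 in WT and 2869.6 ± 84.5 in *Fmo5*-/- mice for *Copz1* (SD, n = 3 each). *Copz2* was far lower, with 965 ± 15.9 in WT and 938 ± 67.8 in *Fmo5*-/- mice. *Copb2* had 2538 ± 117 in WT and 1933 ± 90.7 in *Fmo5*-/- mice, *Copa* 2214 ± 194 in WT and 1782 ± 73.6 in *Fmo5*-/- mice, *Arcn1* 1915 ± 227 in WT and 1392 ± 93.7 in *Fmo5*-/- mice and *Copb1* 1614 ± 79.4 in WT and 1265 ± 52.5 in *Fmo5*-/- mice. *Copg1* had 949 ± 32.9 in WT and 726 ± 19.1 in *Fmo5*-/- mice, about the level of *Copz2* in WT mice, and *Copg2* was lowest, with 418 ± 30.2 in WT and 376 ± 21.3 in *Fmo5*-/- mice. Exon lengths were those of the basic transcripts of the annotation, so levels per length depend on which transcripts liver uses.

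**Figure D3:**
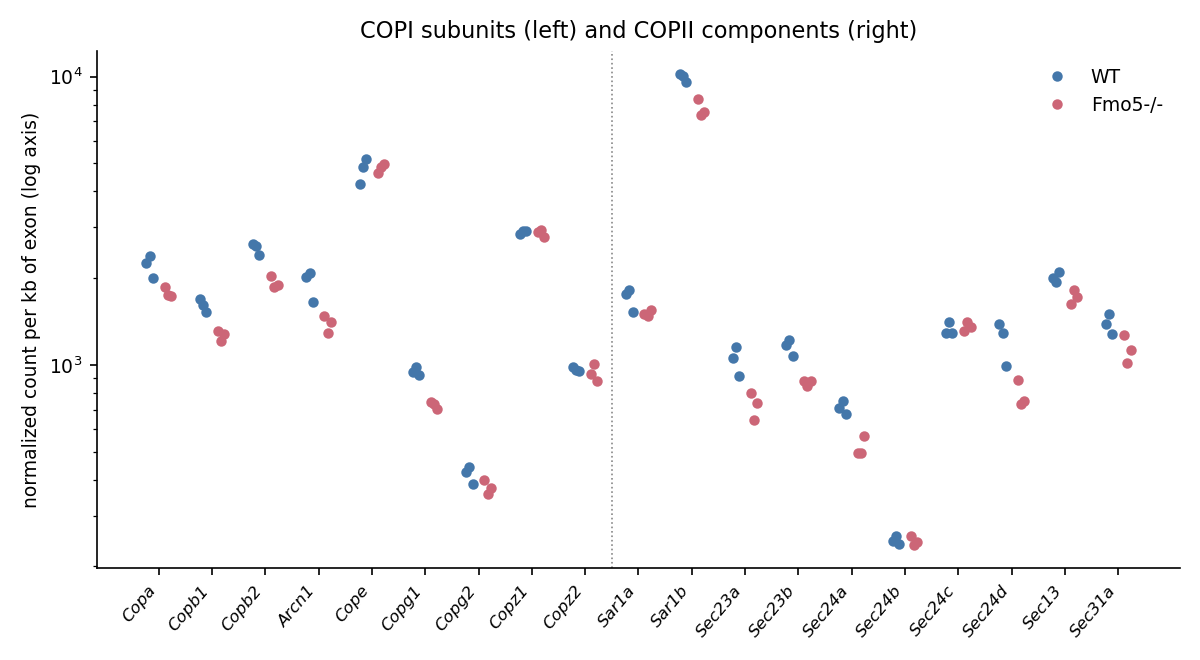
Normalized counts per kilobase of exon, on a log axis, of COPI subunits (left of the dotted line) and COPII components (right) in each of 3 WT and 3 *Fmo5*-/- mice. *Cope*, *Copz1*, *Copz2*, *Sec24b* and *Sec24c* lie at about the same height in both genotypes, while *Copg1*, *Sec23b* and *Sec24a* lie lower in every *Fmo5*-/- mouse.

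The p24 proteins cycle in both coats and carry, among others, GPI-anchored proteins. All 6 genes were lower without overlap, and 0 were called by edgeR, with 4 at an unadjusted p under 0.05 and 3 called lower by DESeq2. *Tmed5* had 3647, 3841 and 3496 in WT and 3028, 2855 and 2743 in *Fmo5*-/- mice (log2 -0.35 ± 0.078 SE, edgeR adjusted p = 0.0626). *Tmed2*, *Tmed7* and *Tmed3* followed with -0.33, -0.33 and -0.30, and *Tmed9* and *Tmed10* had the smallest differences, -0.17 and -0.11. The KDEL receptors return ER chaperones from the Golgi in COPI vesicles. *Kdelr1* was counted 3837, 3816 and 3823 in WT and 3176, 3369.5 and 3348 in *Fmo5*-/- mice, lower in every *Fmo5*-/- mouse but not past the threshold (log2 -0.21 ± 0.071 SE, edgeR adjusted p = 0.132). *Kdelr2* overlapped, at -0.14. *Kdelr3* had 6.35 to 20.2 normalized counts per library, and a difference inside its 95% interval of -0.97 to 1.27 was not detectable at this depth.

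Among the 10 tethers, Rab GTPases and SNAREs, the 2 called genes were *Uso1* and *Rab1a*. *Scfd1* encodes SLY1, which works with the SNARE syntaxin 5 in vesicle fusion. It had 2750.3, 2773 and 2352 in WT and 2015, 1913 and 2009.7 in *Fmo5*-/- mice (log2 -0.41 ± 0.087 SE, edgeR adjusted p = 0.0554). *Sec22b*, the vesicle SNARE, had 3447, 3431 and 3063 in WT and 2808, 2618 and 2543 in *Fmo5*-/- mice (log2 -0.32 ± 0.082 SE, edgeR adjusted p = 0.078), without overlap. It lies on chromosome 3, 0.27 Mb from *Fmo5*, and is the one gene of the 50 within 20 Mb of it, whereas *Sec24d* and *Sec24b* are 25.7 and 32.4 Mb away. What its position contributes was not tested. The 6 genes named next did not pass the test, and only *Trappc3* among them did not overlap. *Golga2* (GM130), the Golgi receptor of p115, had a log2 fold change of -0.013, *Stx5a* (syntaxin 5) -0.064 and *Rab1b* -0.091. The TRAPP subunits *Trappc1*, *Trappc3* and *Trappc4*, of the complex that activates RAB1, had -0.055, -0.083 and -0.18. About 18.9% of the exon bases of *Trappc4* are shared with *Rps25*, and reads there count for neither gene.

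Several of the proteins exist as pairs of paralogues, and the log2 ratio of their read counts within a library is free of the scaling between libraries. Of 11 pairs compared, 4 had ratios that did not overlap between genotypes, each with p = 0.1 in a two-sided exact permutation test, the smallest that 3 against 3 allows (0.275 after Benjamini-Hochberg adjustment over the 11). No pair could therefore pass a threshold of 0.05. The ratio of *Rab1a* to *Rab1b* was 0.50, 0.40 and 0.43 in the WT mice and 0.10, 0.062 and 0.020 in the *Fmo5*-/- mice, a difference of -0.38 that exceeded the spread in either genotype. *Rab1a* made up 57.6% of the counts of the pair in WT and 51% in *Fmo5*-/- mice. *Rab1b* itself had 6408, 6713 and 5931 in WT and 5956, 5958 and 5970.1 in *Fmo5*-/- mice.

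The SEC24 subunits form 2 families, A with B and C with D, which differ in the cargo they bind. The ratio of *Sec24a* to *Sec24b* was 1.93, 1.93 and 1.89 in the WT mice and 1.34, 1.45 and 1.62 in the *Fmo5*-/- mice, tight in WT and lower in all *Fmo5*-/- mice, a difference of -0.45. That of *Sec24c* to *Sec24d* was 0.073, 0.31 and 0.55 in the WT mice and 0.74, 1.13 and 1.03 in the *Fmo5*-/- mice, higher by 0.65 and with a wide range in both genotypes. Within each family, then, 1 paralogue (*Sec24a* or *Sec24d*) was lower in every *Fmo5*-/- mouse while the counts of the other overlapped. For *Copg1* to *Copg2* the ratio was 1.37, 1.38 and 1.49 in the WT mice and 1.12, 1.26 and 1.14 in the *Fmo5*-/- mice, a difference of -0.24. *Copg2* had 1685, 1758 and 1523 in WT and 1578, 1409.8 and 1480.5 in *Fmo5*-/- mice, and 17.8% of its exon bases are shared with *Mest*. The other 7 pairs overlapped, with differences between -0.10 (*Sec23a* to *Sec23b*) and 0.18 (*Sar1a* to *Sar1b*).

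**Figure D4:**
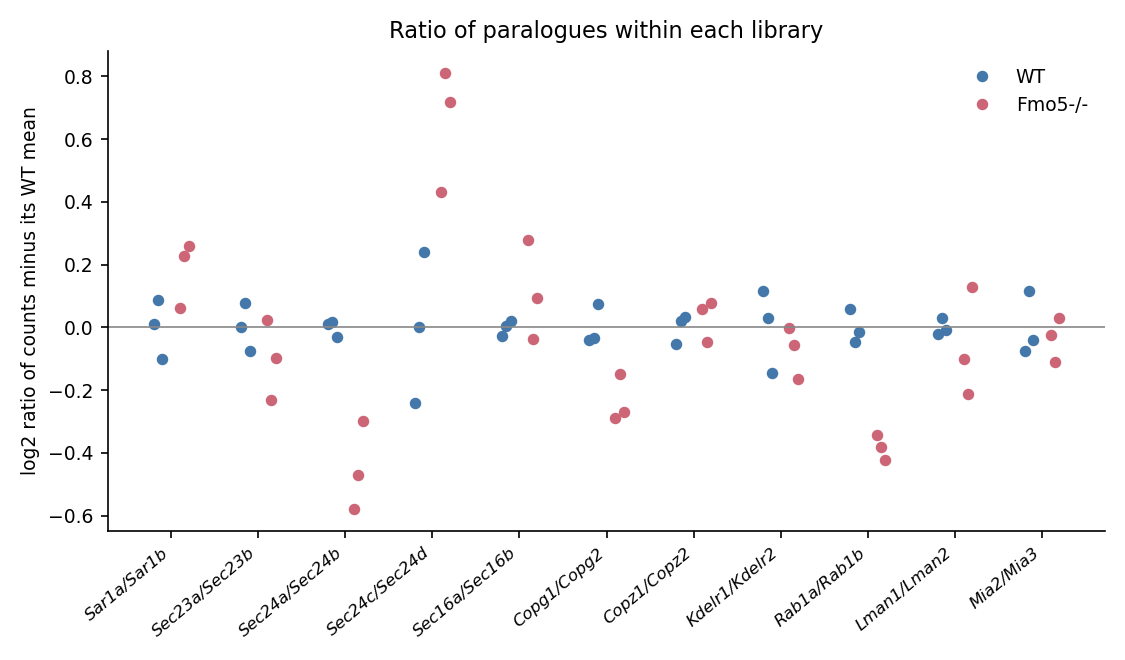
Log2 ratio of the read counts of 2 paralogues within each library, minus its mean over the 3 WT mice, for 11 pairs. Points are single mice, and the *Fmo5*-/- points stand clear of the WT points for *Sec24a*/*Sec24b*, *Sec24c*/*Sec24d*, *Copg1*/*Copg2* and *Rab1a*/*Rab1b*.

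The difference was shared by the 3 *Fmo5*-/- mice. For the 49 genes with a mean of 500 or more, the log2 count (with 0.5 added) was set against the WT mean of each gene. The median over genes was 0.021, 0.054 and -0.071 in the WT mice and -0.24, -0.27 and -0.23 in the *Fmo5*-/- mice. All 7819 genes of that abundance gave 0.011, 0.016 and -0.023, and -0.036, -0.10 and -0.052. WT mouse 3 was the lowest WT mouse for 26 of the 33 genes without overlap, and *Fmo5*-/- mouse 2 was the lowest of all 6 libraries for 22 of the 49.

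**Figure D5:**
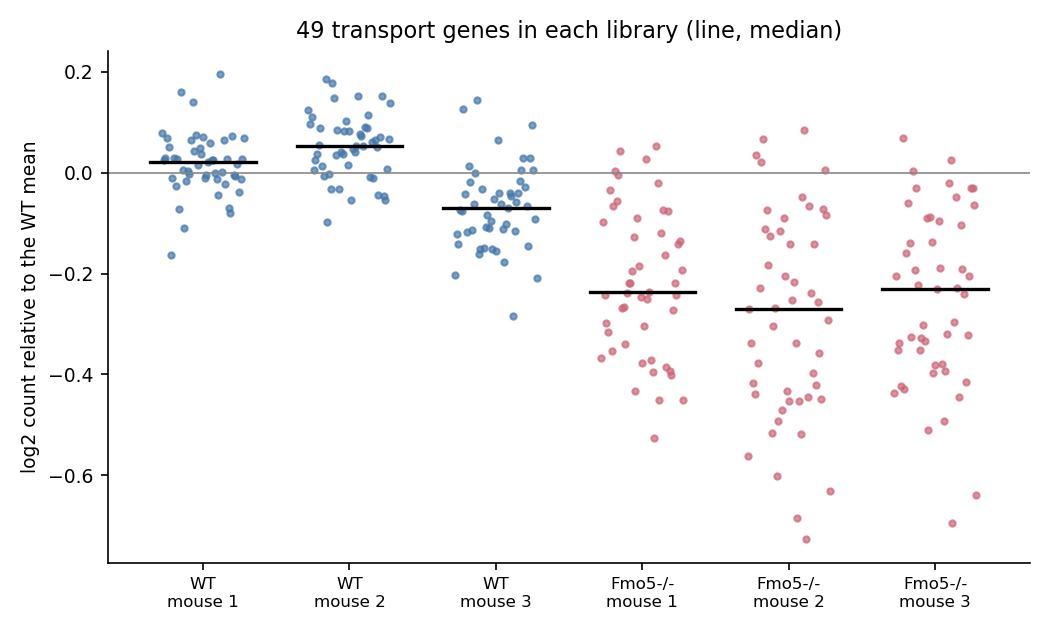
Log2 normalized count of 49 transport genes relative to the mean of the WT mice, in each library, with 1 point a gene and a line at the median. Medians lie between -0.071 and 0.054 in WT and between -0.27 and -0.23 in *Fmo5*-/- mice.

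The same route holds many more genes. Of 69 further genes of ER exit, COPI and ARF, tethering and fusion, 68 were tested (*Tmed6* was too low). Of these, 1 was called lower by edgeR and 0 higher, 9 were called lower by DESeq2, 19 were lower and 4 higher without overlap, and the median log2 fold change was -0.13. Without overlap, 13.5% of all genes tested were lower and 13.9% higher, and of genes with a mean of 500 or more, as 65 of the 68 had, 21.9% were lower and 9.39% higher, so the count of lower genes is near that background. At an unadjusted p under 0.05 in edgeR, 18 were lower and 2 higher, where 17.6% of genes with a mean of 500 or more were lower and 7.62% higher, and DESeq2 called 6.75% of such genes lower. The called gene was *Bet1*, a SNARE of ER to Golgi fusion (chromosome 6, 4076899 to 4086972), with 4701, 4264 and 3921 in WT and 2761, 2692 and 2852 in *Fmo5*-/- mice (log2 -0.63 ± 0.087 SE, edgeR adjusted p = 0.0155). It was lost when WT mouse 1 or *Fmo5*-/- mouse 1 was left out. *Rab2a*, a Golgi GTPase of the retrograde route, had 5425, 5692 and 5272 in WT and 4329, 4447 and 4456 in *Fmo5*-/- mice, with no overlap and an adjusted p of 0.071. *Arl1*, a GTPase of the trans-Golgi that recruits golgins, had 3814, 3975 and 3472 in WT and 3098, 2725 and 2864 in *Fmo5*-/- mice (edgeR adjusted p = 0.0662).

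By step, the median was -0.15 over 15 genes of ER exit, -0.037 over 13 of COPI and ARF, -0.14 over 27 tethers and -0.078 over 13 genes of fusion. These medians are nearer to 0 than that of the 50 genes, and the difference was not tested.

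Of 10 genes of hepatocyte cargo and its loading, 1 was called lower. This was *Mttp*, which is not itself secreted but encodes the transfer protein that loads lipid onto apolipoprotein B (chromosome 3, 138089854 to 138144968), with 16669, 17941 and 15560.5 in WT and 12648, 9820.3 and 10855 in *Fmo5*-/- mice (log2 -0.59 ± 0.11 SE, edgeR adjusted p = 0.0468). It passed in none of the 6 fits that left out 1 library (edgeR adjusted p between 0.0543 and 0.131). Of the 9 genes of secreted cargo, 0 were called in either direction by edgeR, 0 by DESeq2 and 1 was lower at an unadjusted p under 0.05. Without overlap, 2 of the 9 were lower and 0 higher, where 21.9% of genes with a mean of 500 or more were lower. At an unadjusted p under 0.05 in edgeR, 17.6% of such genes were lower. *Apob* had 276375, 309716 and 234256 in WT and 233696, 185480.0 and 228739 in *Fmo5*-/- mice, lower without overlap but with an adjusted p of 0.187 in edgeR. For *Alb*, *Apoa1* and *Trf*, of serum proteins secreted in bulk, the log2 fold changes were -0.061, 0.17 and 0.25, with overlap. *Serpina1a* and *Serpina1b*, near-identical copies, had -0.037 and -0.13, and reads that mapped to both copies counted for neither. *F5*, a cargo of the LMAN1 receptor, had -0.12.

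Of 7 transcription factors known to act on secretory genes, 0 were called by edgeR, with 1 lower and 1 higher at an unadjusted p under 0.05 and 1 called higher by DESeq2. Without overlap, 2 of the 7 were lower and 1 higher. Of genes with a mean of 500 or more, as 6 of the 7 had, 21.9% were lower and 9.39% higher without overlap. At an unadjusted p under 0.05 in edgeR, 17.6% of such genes were lower and 7.62% higher. DESeq2 called 219 of these 7819 genes higher. *Xbp1* and *Atf6*, factors of the unfolded protein response, had log2 fold changes of 0.10 and -0.26, both with overlap, and *Atf6b* one of -0.068. *Creb3l2*, a membrane-bound factor that raises *Sec23a*, had 867, 858 and 1158 in WT and 1309, 1265 and 1438 in *Fmo5*-/- mice, higher without overlap (log2 0.48 ± 0.12 SE, edgeR adjusted p = 0.0802). *Creb3l3*, the liver-enriched member, and *Creb3* were lower in every *Fmo5*-/- mouse, at -0.25 (edgeR adjusted p = 0.242) and -0.094 (adjusted p = 0.489), and *Creb3l1* overlapped at 0.38. Read counts of XBP1 and ATF6 do not show splicing or cleavage, through which both proteins are made active.

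Promoters of the genes were read from RefSeq, in windows of 250 bases before to 50 after the start site (GRCm38.p6). Windows were found for 43 of the 50. The ER stress elements ERSE (CCAAT, 9 bases of any kind, then CCACG) and ERSE-II (ATTGG, 1 base of any kind, then CCACG) were in 0 of the 43 on either strand, and in 0.137% and 0.0444% of all 27025 genes with a window. The core ACGTGG of the unfolded protein response element, searched on both strands, was in 24 of the 43 (55.8%). It was in 9.4% of all genes with a window, 14.1% of genes with a mean of 500 or more, and 24.2% of the further genes of the route. The shorter motif CCACG, which overlaps the reverse complement of that core, was in 31 of the 43 (72.1%), 64.5% of the further genes of the route, 53.5% of genes with a mean of 500 or more and 35.5% of all genes. Median G and C content was 58.7% in the windows of the 50 genes and 61% in those of genes with a mean of 500 or more. The median log2 fold change was -0.22 over the 24 genes with it, of which 2 were called (*Uso1* and *Copg1*), and -0.30 over the 19 without it, of which 4 were called, and the difference between these groups was not tested. A match describes the letters and not a bound site.

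5 windows are shown, with the core in capitals in either orientation, to let the fold changes above be read beside the sequence. *Uso1* (chr5:92137688-92137987, plus strand) holds 4 matches, a pair of which overlap in 1 palindrome. *Copg1* (chr6:87887690-87887989, plus strand) and *Sec24d* (chr3:123267246-123267545, plus strand) hold 1 each, close to the start. *Copz1* (chr15:103272638-103272937, plus strand) also holds 1, and its counts did not differ between genotypes beyond their spread. *Sar1b* (chr11:51763413-51763712, plus strand) holds none. This window also contains the GENCODE start of *Sec24a*, which runs from the other strand and begins 52 bases away, and both genes were lower in every *Fmo5*-/- mouse. The annotations disagree on *Sec24a*, since its RefSeq window (chr11:51756785-51757084, minus strand), the one searched and counted above as without the core, lies inside the GENCODE gene and is not shown.
Uso1: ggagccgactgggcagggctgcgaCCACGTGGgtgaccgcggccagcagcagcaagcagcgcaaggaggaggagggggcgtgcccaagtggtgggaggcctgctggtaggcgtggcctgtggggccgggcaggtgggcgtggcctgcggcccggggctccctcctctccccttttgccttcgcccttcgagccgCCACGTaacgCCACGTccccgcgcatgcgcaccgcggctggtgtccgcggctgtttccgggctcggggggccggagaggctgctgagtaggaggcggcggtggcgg
Copg1: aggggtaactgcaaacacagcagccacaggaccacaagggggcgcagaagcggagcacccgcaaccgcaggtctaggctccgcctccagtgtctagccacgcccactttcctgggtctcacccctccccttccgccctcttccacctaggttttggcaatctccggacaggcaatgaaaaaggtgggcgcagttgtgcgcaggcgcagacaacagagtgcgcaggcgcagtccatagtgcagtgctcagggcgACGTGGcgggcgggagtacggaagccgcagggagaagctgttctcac
Sec24d: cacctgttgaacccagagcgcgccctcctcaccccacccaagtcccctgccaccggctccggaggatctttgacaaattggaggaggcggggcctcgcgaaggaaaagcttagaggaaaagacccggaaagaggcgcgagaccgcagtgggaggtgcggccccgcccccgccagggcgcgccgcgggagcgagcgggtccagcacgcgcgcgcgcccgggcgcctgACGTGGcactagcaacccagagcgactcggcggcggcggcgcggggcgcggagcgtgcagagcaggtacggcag
Copz1: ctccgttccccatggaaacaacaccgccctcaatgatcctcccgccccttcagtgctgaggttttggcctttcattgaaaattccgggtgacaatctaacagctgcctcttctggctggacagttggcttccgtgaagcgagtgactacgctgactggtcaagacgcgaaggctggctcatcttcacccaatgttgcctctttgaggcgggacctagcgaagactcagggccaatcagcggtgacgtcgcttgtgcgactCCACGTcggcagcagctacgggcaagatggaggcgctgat
Sar1b: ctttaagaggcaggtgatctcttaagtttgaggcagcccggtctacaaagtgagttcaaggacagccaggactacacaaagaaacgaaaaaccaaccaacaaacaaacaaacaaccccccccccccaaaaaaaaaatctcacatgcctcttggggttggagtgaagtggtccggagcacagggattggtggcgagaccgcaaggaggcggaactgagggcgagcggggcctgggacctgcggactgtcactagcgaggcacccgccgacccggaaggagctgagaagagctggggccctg

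Across the 50 genes, the log2 fold change was lower in genes that span more of the genome (Spearman's rho -0.45 over 50 genes, which share the same 6 libraries), a description only, where 7680 protein-coding genes with a mean of 500 or more gave -0.065. With exon length rho was -0.26 over the 50 genes and 0.069 over the 7680, and with mean count -0.25 and -0.27.

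Markers of some other cell types differed between genotypes as well. All 7 markers of Kupffer cells and macrophages had higher estimates in *Fmo5*-/- liver, 1 of them (*Clec4f*, log2 0.70 ± 0.11 SE, edgeR adjusted p = 0.0275) was called, and none of the list was at 0 in all libraries. *Clec4f* passed without WT mouse 3 or without *Fmo5*-/- mouse 3 and in none of the other 4 fits that left out 1 library. All 7 had an unadjusted p under 0.05, DESeq2 called 6 higher and 6 did not overlap. For comparison with this and the next lists, 113 of all 16734 genes tested were called higher by edgeR. At an unadjusted p under 0.05 in edgeR, 1944 were higher, and 13.9% were higher without overlap. Of the same 16734 genes, 15565 had an adjusted p from DESeq2, which called 734 of them higher. Summed counts of the 7 Kupffer cell and macrophage markers were 8794 to 10513 in WT and 13773 to 25395 in *Fmo5*-/- mice. All 4 T cell markers had higher estimates, with sums of 67.0 to 106 and 146 to 631, and 0 were called by edgeR, with 4 at an unadjusted p under 0.05 and 3 called by DESeq2. The 4 neutrophil markers, of which 2 were tested and 0 called by edgeR (2 at an unadjusted p under 0.05, 1 by DESeq2), summed to 37.8 to 113 in WT and 116 to 244 in *Fmo5*-/- mice. The sums of 5 B cell and plasma cell markers were 229 to 294 in WT and 311 to 385 in *Fmo5*-/- mice. Sums of sinusoidal endothelial, stellate cell and cholangiocyte markers overlapped, with ratios of *Fmo5*-/- to WT means of 1.06, 1.09 and 1.01. The summed counts of the 6 hepatocyte markers had a ratio of *Fmo5*-/- to WT means of 0.969. Reads in no gene made up 6.86% to 7.02% in WT and 6.96% to 8.63% in *Fmo5*-/- libraries. Unmapped reads made up 9.72% to 10.15% in WT and 9.10% to 9.20% in *Fmo5*-/- libraries, without overlap. Reads that mapped to several places made up 11.85% to 13.10% in WT and 10.42% to 11.49% in *Fmo5*-/- libraries. Reads ambiguous between genes made up 3.52% to 3.62% in WT and 3.72% to 3.98% in *Fmo5*-/- libraries. These shares did not overlap either. The part of these differences in the results was not tested, and in whole liver fewer cells of a type and less RNA per cell cannot be told apart.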

How the data were processed

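RNA of frozen liver, 1 library a mouse, was sequenced as single reads of 75 bases. The authors clipped adapter remnants, aligned to mm10 with STAR 2.6.0c and deposited STAR's raw counts per gene, for both strands together and for 1 strand. They also deposited a signal per library (raw counts divided by a DESeq2 size factor), used here only to check which counts it was made from, and columns of fold changes and p-values of their own comparison, which were not used. The annotation release is not given in the sources used here, so positions and exon lengths came from GENCODE vM21, to which 5 of the 50 genes matched only with the version of the identifier left off. Reads in exons shared by 2 genes count for neither.

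Counts were analysed in R 4.3.3 with edgeR 4.0.16 (filterByExpr with a minimum count of 10, TMM, robust quasi-likelihood F test), all 6 libraries, and Benjamini-Hochberg adjustment over 16734 genes at a threshold of 0.05. A standard error is the log2 change divided by the root of F, and intervals cover 95%. DESeq2, which the study used, was run (1.42.0) as an alternative, beside other scalings, filters, reads of 1 strand and each library left out. No overlap means that every mouse of 1 genotype lies beyond every mouse of the other. In data simulated on these libraries edgeR recovered 26.9% of genes changed by 0.5 on the log2 scale and 74.6% of those changed by 1. False calls were 7 of 136 with edgeR and 14 of 139 with DESeq2. The changed genes were drawn from all genes tested, whose median WT count was 395, against 4723 for the 50 genes. These shares are therefore not those of the 50 genes. With 44886286 to 52338675 counts on genes per library, *Kdelr3* is the one of the 50 genes with a mean under 500, and each genotype has 3 mice. Values in every library are given for the called genes, the 12 with the smallest p, any within 20 Mb of *Fmo5*, the pairs whose ratios did not overlap and, in the other lists, *Bet1*, *Rab2a*, *Arl1*, the called cargo and *Apob*. *Kdelr1* and *Creb3l2* were added after their values were seen. Genes and lists were chosen with earlier results of these data known. Promoter windows came from RefSeq. The values of 1 cargo gene are not reported here.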

Additional observations from a re-analysis of the deposited data

How the results depend on the processing

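The median log2 fold change over the transport genes kept its size under every alternative, between -0.27 and -0.21 (-0.264 with DESeq2, -0.206 with only genes of a mean of 500 or more in the fit, -0.264 to -0.223 with 1 library left out), and the 4 paralogue ratios that did not overlap kept their direction with the reads of 1 strand and with 1 library left out. The other 7 ratios were not recomputed. The number of genes called did not hold. Of the transport genes, 6 were called lower by edgeR, 23 by DESeq2, 22 without the filter on low counts and 0 with only genes of a mean of 500 or more, and 0 to 5 with 1 library left out. Of all genes, 0.693% were called lower by edgeR and 4.21% of those with an adjusted p by DESeq2. The share was 2.62% without the filter, 0.294% with only genes of a mean of 500 or more, and 0.088% to 0.917% with 1 library left out. Of the further genes of the route, 1 was called, against 9 by DESeq2, 10 without the filter and 0 to 2 with 1 library left out, the count of 0 coming without WT mouse 1 or *Fmo5*-/- mouse 1. Over all genes the count was 229, and 1395 by DESeq2, 1989 without the filter and 53 with the filter at 500, and with 1 library left out it ran from 31 without *Fmo5*-/- mouse 1 to 763 without *Fmo5*-/- mouse 3 (62 and 82 without WT mouse 1 or 2, 148 without WT mouse 3, 106 without *Fmo5*-/- mouse 2). The cause was not tested. With only genes of a mean of 500 or more in the fit, 41 of 49 transport genes were lower, against 47 of 50, and single genes were not followed there, without the filter or with the reads of 1 strand. Under DESeq2, the other scalings and 1 library left out, directions turned in 6 genes near 0 or barely counted, none called in any of these fits. *Sec24b* was 0.0006356 when scaling left out the 20 most abundant genes. With 1 library left out, ranges were -0.09619 to 0.004551 for *Copz2*, -0.02792 to 0.009535 for *Copz1*, -0.05308 to 0.08814 for *Cope*, -0.05996 to 0.07644 for *Golga2*, -0.03665 to 0.02338 for *Sec24b* and -0.2368 to 0.6546 for *Kdelr3*. *Kdelr3* was the one of the 50 with a mean under 500, and depth limits it. No paired analysis was possible because the labels give no replicate numbers that the genotypes share.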
